A study of Marchantia polymorpha with 2 samples.

Results

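The most abundant transcripts of the Marchantia polymorpha thallus were taken as the genes whose normalized count, averaged over the mock and the estradiol library, was 10000 or more. Of 16280 genes in the table, 189 met this rule (1.16%). Identifiers that start with MapolyY, which name genes of the male sex chromosome, were to be left out, and 0 of them reached the threshold. The genes were chosen by their levels in these same libraries, so levels, ratios and shares of these genes are given as descriptions, with no test.

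Both libraries came from thallus of plants with the genotype proEF1:MpKNOX2; proEF1:XVE>>MpBELL1. MpKNOX2 was thus driven by the constitutive EF1 promoter in mock and estradiol plants alike, and MpBELL1 was under the estradiol-responsive XVE system, itself expressed from the EF1 promoter. Gemmae grew for 10 days at 23°C in continuous white light, were moved to mock medium or to 5 µM 17-β-estradiol, and were frozen 72 h later. Each treatment had 1 library, and how many plants or independent transformed lines went into each is not given. Without estradiol-treated plants that lack the XVE construct among the libraries analysed here, induction of MpBELL1 and exposure to estradiol cannot be told apart.

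Marchantia polymorpha is a liverwort whose dominant body, the thallus, is a flat, haploid, photosynthetic sheet. In green plant tissue a small set of nuclear genes usually accounts for a large share of messenger RNA, among them genes for chlorophyll-binding antenna proteins, the small subunit of Rubisco, ribosomal proteins and translation factors. KNOX and BELL proteins are homeodomain transcription factors of the TALE class that act as heterodimers, and in the green alga Chlamydomonas such a pair switches on the diploid programme after fertilization. Which of the 189 genes encode which products could not be read from the files, which give identifiers only, so the genes are described by identifier, and the tissue label was not checked against marker genes.

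The mock library held 15495357 reads in genes and the estradiol library 13103037. Depth was ample for these genes, with 2316 to 176055 reads per gene in mock and 326 to 88468 in estradiol. The 95% counting interval of the ratio of estradiol to mock had an upper bound within 1.1 times its lower bound for 186 of the 189 genes, and 1.25 times at the widest. Counting error was therefore small beside most of the differences below, but variation between plants was not measured. The intervals also leave out the choice of scaling. Rescaling the libraries to equal totals moved log2 ratios by up to 0.27 among 72 genes followed singly. Counts were not divided by transcript length, so an order of genes within a library is an order of reads and not of transcript numbers. In bulk tissue, fewer cells of a type and less RNA per cell cannot be told apart.

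The 189 genes took a smaller part of the estradiol library than of the mock library. They held 32.9% of all counts in mock (95% exact binomial interval 32.8 to 32.9) and 24.4% in estradiol (24.4 to 24.4). In mock their levels ran from 2344 normalized counts through a median of 18762 to 178177. In estradiol they ran from 324.4 through a median of 14513 to 88030. More of the genes reached high levels in mock under the authors' scaling. At 50000 or more there were 27 genes in mock and 6 in estradiol, and at 20000 or more 84 against 45. These levels and counts depend on that scaling.

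**Figure D1:**
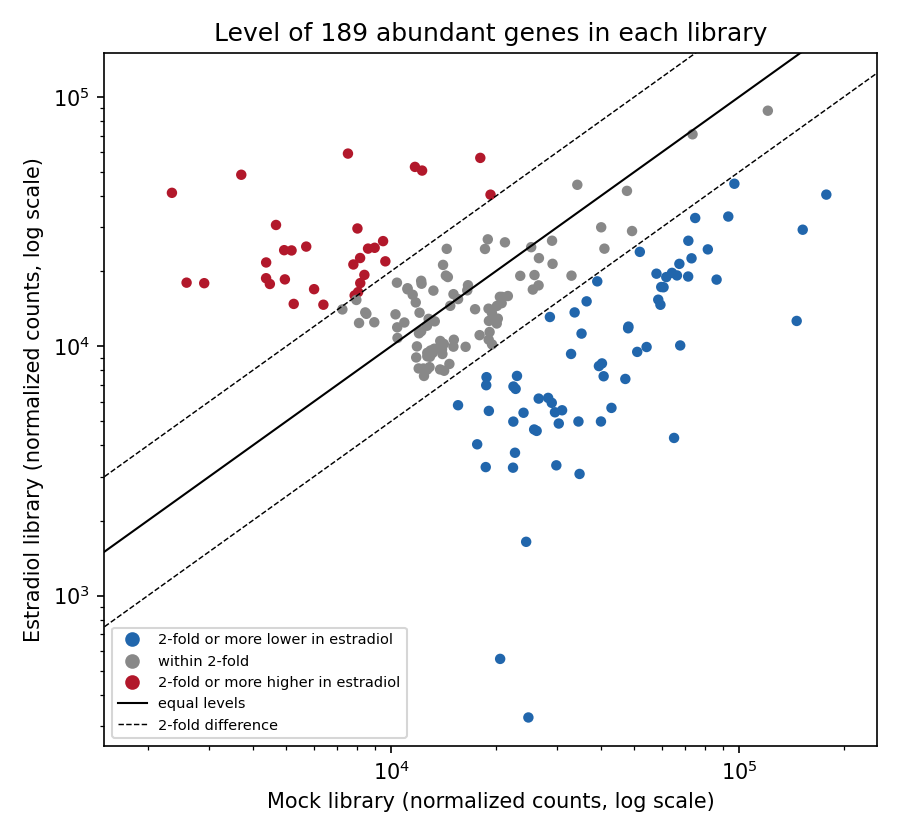
Level of each of the 189 genes in the mock library (horizontal) and in the estradiol library (vertical), both in normalized counts on log axes. The solid line marks equal levels and the dashed lines a 2-fold difference; 66 genes lie below the lower dashed line and 31 above the upper one.

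Under the authors' scaling, most of the gap between the library totals lay in these genes. The normalized counts of all genes summed to 2643903 fewer in estradiol than in mock, and the 189 genes made up 1972208 of that difference (74.6%). Added up, their counts in estradiol were 0.617 times those in mock. The sum over all other genes was 0.936 times that in mock. Of the 189 genes, 127 were lower in estradiol and together lost 2736682 normalized counts, and 62 were higher and together gained 764475. Of the 12854 genes that averaged at least 10 normalized counts, 6640 were lower in estradiol. The 10 genes with the largest loss accounted for 29.3% of the summed loss. The gap, its division among genes, the ratios of sums and the counts of lower genes depend on how the authors scaled the libraries. The share of each library held by these genes does not.

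At a 2-fold threshold, 66 of these genes were lower in estradiol (34.9%), against 18.2% of the 12854 genes tested, those that averaged at least 10 normalized counts. Another 31 genes were higher (16.4%), against 15.0% of all genes tested. The counting interval lay wholly beyond 2-fold for each of the 66 lower genes and for 29 of the 31 higher genes, against backgrounds of 14.9% and 12.0%. At 4-fold, 37 genes were lower and 13 higher, where the backgrounds were 6.39% and 5.19%. At 8-fold, 8 were lower and 2 higher, beside backgrounds of 1.43% and 1.81%. Of the 189 genes, 60 lay within 1.5-fold (31.7%), compared with 48.6% of all genes tested. Nothing is read from these contrasts with the background, since an average over 2 libraries favours genes that are very high in one of them.

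The median log2 ratio of the 189 genes was -0.48, with quartiles of -1.70 and 0.40. Over all genes with a mean of 10 or more the median was -0.03, with quartiles of -0.66 and 0.56. The distance between the quartiles, which a single scaling factor per library barely alters, was 2.10 log2 units among the 189 genes. It was 1.23 over all genes tested and 1.27 among the 263 genes just less abundant, with means between 5000 and 10000. That next class had a median of -0.18, with 57 genes at least 2-fold lower and 49 higher. For the 97 of the 189 genes at 10000 or more in both libraries, the distance between the quartiles was 1.29. Nothing is read from the wider distance of the 189 genes, since their rule admits genes very high in 1 library only.

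**Figure D2:**
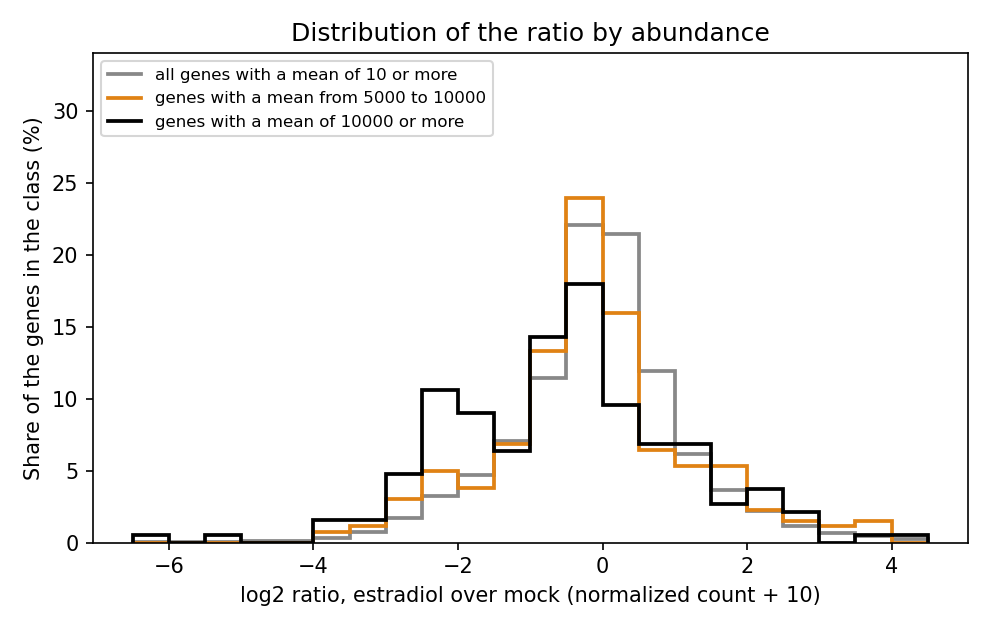
Distribution of the log2 ratio of estradiol over mock (normalized count + 10), in bins of 0.5, as the share of genes in each abundance class. The black outline stands for the 189 most abundant genes, whose quartiles lie at -1.70 and 0.40; they were chosen by the levels that form the ratio, so its shape is a description.

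The sign of the median followed the library in which abundance was required, since each such rule favours genes high in that library. Of the 189 genes, 97 stood at 10000 or more in both libraries, 59 in mock alone and 33 in estradiol alone. Choosing all genes at 10000 or more in mock gave 197 genes, of which 98 were at least 2-fold lower and 4 higher, and whose log2 ratios had a median of -0.997. Choosing all genes at 10000 or more in estradiol gave 164 genes, of which 29 were lower and 60 higher, and whose median was 0.39. For the 97 genes abundant in both libraries the median was -0.44, with 29 genes lower and 4 higher. Among all genes tested, 18.2% were lower by at least 2-fold and 15.0% were higher. Nothing is read from these contrasts, since each rule uses levels that form the ratio. The medians and counts also depend on the authors' scaling.

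The genes with the highest means were mostly lower in estradiol, in an order set by the same levels that form the ratio. Each of the first 10 had a lower level in estradiol, 8 of them by at least 2-fold, and together they went from 7.04% of the mock library to 3.03% of the estradiol library. With equal library totals 9 of the 10 were lower, 6 of them by at least 2-fold: Mapoly0001s0424.1.v3.1 turned to a log2 ratio of 0.21, and Mapoly0199s0020.1.v3.1 (-0.85) and Mapoly0053s0082.1.v3.1 (-0.93) went under 2-fold. Among the genes in places 11 to 50, 24 were at least 2-fold lower and 6 were higher, and the median log2 ratio was -1.50. In places 51 to 100, 16 were lower, 8 were higher and the median was -0.44. Of the remaining 89, 18 were lower by 2-fold or more and 17 were higher, while 52 lay below 0 and 37 above, and the median was -0.40. Over all genes tested, 18.2% were at least 2-fold lower and 15.0% higher, and 6640 of the 12854 lay below 0. Nothing is read from the change along this order, since the largest levels were in mock and weigh most in the highest means.

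**Figure D3:**
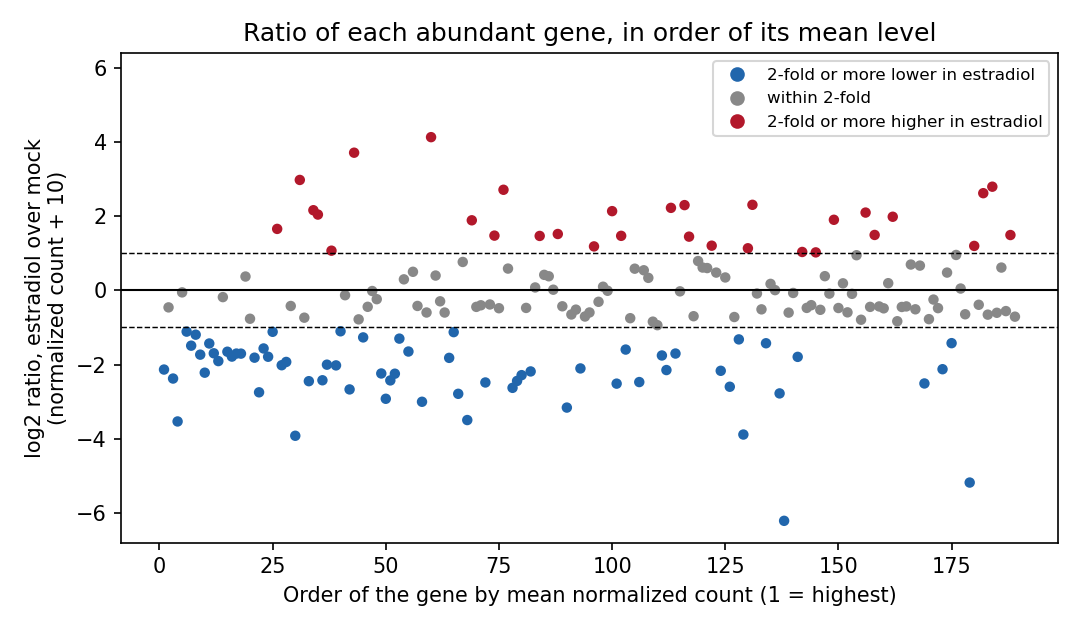
The log2 ratio of estradiol over mock (normalized count + 10) of each of the 189 genes, ordered from the highest mean level on the left. The order uses the levels that form the ratio, so it is a description. Dashed lines mark 2-fold; the first 10 points all lie below 0, and among the last 89 genes 18 lie below the lower dashed line and 17 above the upper one.

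Mapoly0068s0071.1.v3.1 had the highest mean of all genes, with 178177 normalized counts in mock and 40565 in estradiol. Mock was 4.39 times the estradiol level (95% counting interval 4.35 to 4.44), and the gene went from rank 1 of the mock library to rank 12 of the estradiol library. Its loss of 137612 normalized counts was the largest of the 189 genes. Mapoly0011s0071.1.v3.1 had rank 2 in mock with 152407 and stood at 29330 in estradiol, a ratio of mock to estradiol of 5.20. Mapoly0022s0132.1.v3.1 had rank 3 in mock with 146439 and had 12631 in estradiol, where it ranked 123. Its mock level was 11.6 times the estradiol level (11.4 to 11.8). These 3 genes together were the leading transcripts of mock by reads, and none of them was among the first 10 in estradiol.

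Mapoly0024s0116.1.v3.1 was first in the estradiol library with 88030 normalized counts and had rank 4 in mock with 120984, a mock level 1.37 times the estradiol level. Mapoly0001s0424.1.v3.1 had nearly the same level in both, 73504 in mock and 70796 in estradiol, and moved from rank 10 to rank 2. Mapoly0199s0020.1.v3.1 had 96957 in mock and 44849 in estradiol. These 3 genes were the only ones among the first 10 of both libraries. Of the first 50 genes of each library 20 were shared, and of the first 100, 47 were shared.

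The other 4 of the 10 genes with the highest mean had mock levels at least 2-fold above those in estradiol, for Mapoly0053s0082.1.v3.1 under the authors' scaling but not with equal totals. One of them, Mapoly0199s0012.1.v3.1, is given with its scaffold below. Mapoly0053s0082.1.v3.1 had 74812 normalized counts in mock and 32682 in estradiol. Mapoly0006s0261.1.v3.1 had 81333 in mock and 24460 in estradiol, and Mapoly0080s0027.1.v3.1 had 86186 in mock and 18501 in estradiol.

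The genes with the lowest and the highest ratios were abundant in a single library. Mapoly0057s0073.1.v3.1 had 24803 normalized counts in mock and 324.4 in estradiol, so that mock was 76.5 times the estradiol level (68.5 to 85.6). It was gene 66 by rank in mock and 6526 in estradiol. Mapoly0159s0027.1.v3.1 had 20575 in mock and 557.2 in estradiol, a mock level 36.9 times as high (33.9 to 40.2). These were the 2 genes of the 189 with fewer than 1000 normalized counts in estradiol, and 0 of the 189 were under 1000 in mock.

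In the other direction, Mapoly0064s0029.1.v3.1 had 2344 normalized counts in mock and 41235 in estradiol, 17.6 times as much (16.9 to 18.4), and moved from rank 1238 to rank 11. Mapoly0049s0126.1.v3.1 had 3709 in mock and 48727 in estradiol, 13.1 times as much (12.7 to 13.6), and reached rank 7. The largest gain in counts belonged to Mapoly0074s0006.1.v3.1, which had 7514 in mock and 59249 in estradiol, where it had rank 3. The 31 genes at least 2-fold higher ran from 2344 to 19304 in mock, with a median of 7514, and from 14673 to 59249 in estradiol, with a median of 22585. The 2 sets of levels thus overlapped between 14673 and 19304, although each gene was higher in estradiol.

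The 66 genes at least 2-fold lower ran from 15570 to 178177 normalized counts in mock, with a median of 39341. In estradiol the same genes ran from 324.4 to 44849, with a median of 8430. They held 20.3% of all counts in mock and 6.15% in estradiol. The 31 higher genes held 1.46% in mock and 6.55% in estradiol, so that each set held a similar share of the estradiol library. The 92 genes within 2-fold held 11.1% and 11.7%. The sets were split by the ratio itself, so a fall in the share of the lower set and a rise in that of the higher set follow from the split.

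**Figure D4:**
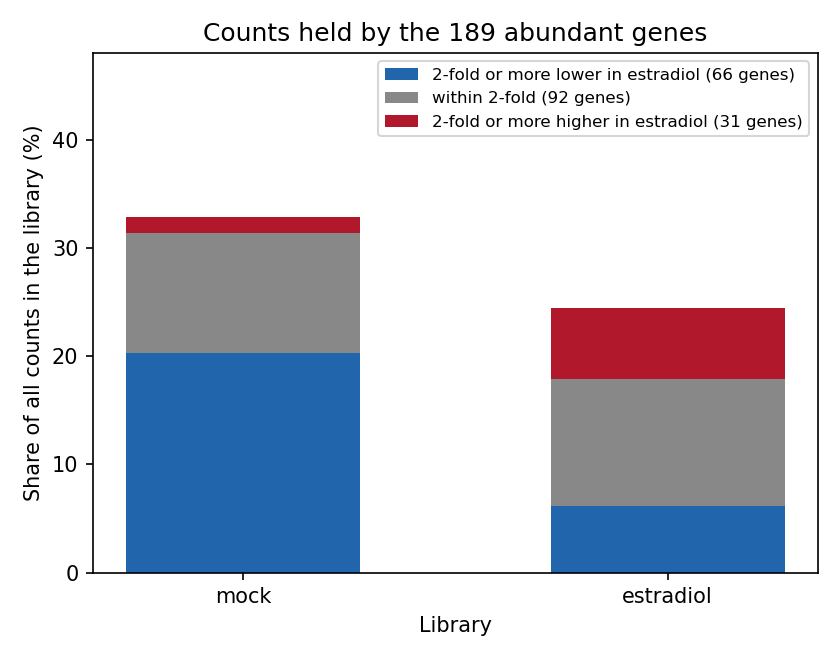
Share of all counts in each library held by the 189 genes, stacked by the ratio of estradiol to mock. The bars reach 32.9% in mock and 24.4% in estradiol, and the part of the 66 lower genes shrinks from 20.3% to 6.15%. The split uses the ratio, so that part shrinks by construction.

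For 5 genes the counting interval of the ratio included equality, against 22.7% of all genes tested, most of which have far fewer reads. Mapoly0001s0237.1.v3.1 had 25267 normalized counts in mock and 24964 in estradiol. Mapoly0007s0111.1.v3.1 had 16549 and 16759, and Mapoly0060s0109.1.v3.1 had 15574 and 15458. Mapoly0009s0154.1.v3.1 had 14790 in mock and 14523 in estradiol, and Mapoly0022s0170.1.v3.1 had 12818 and 12876. Equality here is equality under the authors' scaling, and equal library totals would place each of the 5 higher in estradiol.

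Around the threshold the last genes inside were Mapoly0002s0049.1.v3.1, at 5249 in mock and 14784 in estradiol, and Mapoly0031s0128.1.v3.1, at 12430 and 7600 normalized counts. The first outside were Mapoly0067s0001.1.v3.1, with 12018 in mock and 7978 in estradiol, and Mapoly0100s0042.1.v3.1, with 6275 and 13636. Genes on both sides of the threshold were thus higher in one library and lower in the other. A further 41 genes reached 10000 in mock and 34 reached it in estradiol while their mean stayed below it.

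Each identifier names a scaffold and a gene on it, a property the rule did not use. The 189 genes lay on 101 of the 576 scaffolds with a gene in the table, 53 of these scaffolds with 1 such gene and 11 with 4 or more. Scaffold Mapoly0001, with 514 genes in the table, had the most at 9 (1.75%). Scaffold Mapoly0037 had 6 of 132 genes (4.55%), all within 2-fold. Scaffold Mapoly0199 had 5 of 19 genes (26.3%), all at least 2-fold lower in estradiol, as were 34.9% of the 189 genes and 18.2% of all genes tested. With equal library totals 4 of the 5 remained past 2-fold, without Mapoly0199s0020.1.v3.1.

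On Mapoly0199 the abundant genes had numbers from 12 to 20. Mapoly0199s0012.1.v3.1 had 93122 normalized counts in mock and 33125 in estradiol. Mapoly0199s0013.1.v3.1 had 34800 in mock and 3075 in estradiol, an 11.3-fold lower level in the latter. Mapoly0199s0015.1.v3.1 had 59752 and 17278, and Mapoly0199s0018.1.v3.1 had 26197 and 4576. With Mapoly0199s0020.1.v3.1 they held 1.98% of all counts in mock and 0.789% in estradiol, or 6.03% and 3.23% of the counts of the 189 genes. The 4 genes numbered between them were also well expressed, with means from 3532 to 9158, and had 5537 to 16734 normalized counts in mock and 1526 to 6940 in estradiol. The log2 ratios of the 5 genes ran from -3.50 to -1.11, so neighbours shared a direction and not a size.

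**Figure D5:**
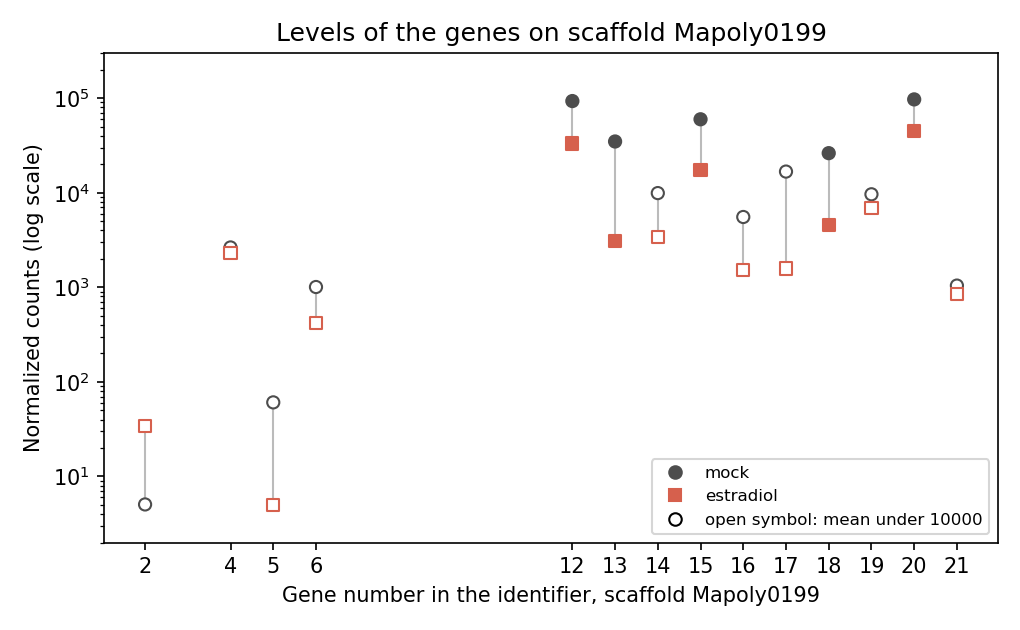
Normalized counts (log axis) in mock (circles) and estradiol (squares) of the genes on scaffold Mapoly0199 with a mean of 10 or more, by the gene number in the identifier. Filled symbols are the 5 genes at or above the threshold of 10000; from gene 12 to gene 20 each circle lies above its square.

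Consecutive gene numbers occurred in 5 pairs among the 189 genes, of 13895 such pairs in the table. In each pair both genes had a lower level in estradiol, as had 127 of the 189 genes and 6640 of the 12854 genes tested. With equal library totals this held for 4 of the 5 pairs, since Mapoly0023s0167.1.v3.1 turned to a log2 ratio of 0.03. Mapoly0005s0187.1.v3.1 and Mapoly0005s0188.1.v3.1 had log2 ratios of -0.72 and -0.74. Mapoly0023s0166.1.v3.1 and Mapoly0023s0167.1.v3.1 had -0.40 and -0.24, and Mapoly0028s0093.1.v3.1 and Mapoly0028s0094.1.v3.1 had -0.52 and -0.31. The remaining 2 pairs differed more within the pair. Mapoly0119s0030.1.v3.1 had -1.10 beside -2.92 for Mapoly0119s0031.1.v3.1, and Mapoly0199s0012.1.v3.1 had -1.49 beside -3.50 for Mapoly0199s0013.1.v3.1. Near-identical copies among the 189 genes were not identified here, so levels of neighbouring or related genes are uncertain where reads could be shared between them.

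In the authors' deposited table, 66 of the 189 genes were tagged down (34.9%) and 31 up (16.4%), beside 13.4% and 10.3% of all genes in that table. All of its 2177 down and 1677 up tags lay among the 12854 genes tested, over which these shares are larger. Nothing is read from the contrast, since the 189 genes were chosen by their levels in these libraries. The 97 tagged genes were exactly those at least 2-fold different here. The authors' deposited table gave tagged genes of this set a probability of 0.936 or more and untagged ones 0.848 or less, where the authors' limit was 0.9. The genes on either side of that limit were close in ratio. The untagged gene with the highest probability had a deposited log2 ratio of 0.956, and the tagged gene with the lowest had 1.03. Tags and ratios share both libraries, so the match between them is no separate evidence.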

How the data were processed

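Total RNA from thallus was sequenced in 2 libraries, 1 per treatment. Per the submitters' processing notes, FastQC, STAR and HTSeq were used. Their versions, the genome build, strandedness, the treatment of reads shared by similar genes and how counts were normalized are not stated in the notes or labels. The authors deposited a signal per gene, named normalized counts, for 16280 genes. The authors' deposited comparison table repeats these and adds, per the file headers, the absolute difference, a log2 ratio, a probability score between 0 and 1, a ranking score and an up or down tag. How the probability was made is not given, and it was not read as a p-value.

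From these values the log2 of (normalized count + 10) was compared between libraries, a scale that understates differences of low genes. Genes with a mean of 10 or more formed the background of 12854. Divided by the lowest non-zero value of their column, all values were whole numbers to within 3.63e-05. A single read thus equalled 1.01 normalized counts in mock and 0.995 in estradiol. The recovered reads gave exact (Clopper-Pearson) 95% intervals. Because PCR copies of a molecule cannot be recognised, these intervals cover counting error only. With 1 library per group, no test across samples was run.

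Of the deposited identifiers, 0 matched any of 18391 genes of a reference table for assembly MpTak2_v7.1, so gene names, products, lengths, sequences and the planned functional groups were not analysed here. Identifiers are printed for the 10 genes with the highest mean, the 2 highest and 2 lowest ratios, the genes around the threshold, and elsewhere where a result turns on them. The genes described and the summaries were chosen with earlier results of these data known, and no count above or below is independent support for a pattern. The calculations were tested on simulated data. Alternatives covered the scaling, the pseudocount, the fold threshold, the counting interval and the rule for abundance. Python 3.11.15 with NumPy 2.4.6, pandas 2.3.3, SciPy 1.17.1 and Matplotlib 3.10.9 was used.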

Additional observations from a re-analysis of the deposited data

How the results depend on the processing

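No paired analysis was possible because mock and estradiol had 1 library each, and no replicate could be left out. Functional groups were not run. At 2-fold, 66 of the 189 genes were lower and 31 were higher, and the median log2 ratio was -0.48. The shares over all genes tested, 18.2% lower and 15.0% higher, hold for the authors' scaling and are not given for rescaled libraries. Pseudocounts of 1 and 50, a median log2 ratio of 0, MapolyY identifiers kept and a geometric mean of 10000 or more left both counts within 1.5 times and the median within 0.1. With equal totals the rule took 209 genes (61 lower, 45 higher) and the median was -0.18, where the median of all genes tested was 0.23. A pair of settings was chosen after seeing the data. Equal totals with the same 189 genes gave a median of -0.22, with 61 lower and 35 higher, and equal totals of the other genes gave -0.39, with 66 and 33. A 4-fold threshold left 37 lower and 13 higher, and an 8-fold threshold 8 and 2. A mean of 5000 or more gave 452 genes (123 lower, 80 higher, median -0.31, 45.0% of mock and 37.7% of estradiol counts). A mean of 20000 or more gave 65 genes (39 lower, 7 higher, median -1.30, 21.1% and 12.4%). Abundance in mock gave 4 higher genes, a median of -0.997 and shares of 34.8% and 19.99%. Abundance in estradiol turned the median to 0.39, with 29 lower and 60 higher and shares of 24.6% and 24.6%. Abundance in both gave 29 lower and 4 higher, with shares of 22.5% and 15.7%, and the geometric mean shares of 31.2% and 22.7%. These last moves follow from which genes each rule takes. Of 72 genes followed singly, 39 were at least 2-fold different, and 0 of these changed sign under the pseudocounts and rescalings, while 3 went under 2-fold with equal totals. Among the other 33, 7 changed sign with equal totals and 3 with a median log2 ratio of 0.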
